A study of Mus musculus with 8 samples.

Results

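The liver breaks down surplus amino acids and turns their nitrogen into urea. A set of 39 enzyme and carrier genes that do so was chosen by name, as genes of the urea cycle and of glutamine, proline, histidine, tyrosine, glycine, methionine, lysine and branched-chain amino acid metabolism. Of these, 35 had a probe set tied to that symbol alone, out of 19938 genes measured, and no filter on dim values was applied. Where a gene had several probe sets, the brightest by the mean of all arrays stood for it. Gls2, Sds and Sdsl had no probe set under their symbol, and the 3 probe sets of Ahcy are also tied to Gm4737, so these 4 genes were not analysed here.

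Expression was measured on 8 Affymetrix arrays, 1 per liver, in 4 mice that carry a transgene for constitutively active IKK2 under the LAP promoter and in 4 wild type control mice. All were 4 weeks old, on a mixed background of C57BL/6 and NMRI that had been crossed back to C57BL/6 at least 4 times. IKK2 is a kinase that activates NF-kB, the transcription factor of inflammatory genes, and the LAP promoter is active in hepatocytes, so the transgene is driven in hepatocytes while the arrays read the whole organ. The labels call the livers of a group biological replicates, and the sources used here do not give their sex. Each probe set has a log2 value per array, so a difference of 1 is a doubling, and differences are given as transgenic minus control. In whole liver, fewer hepatocytes and less RNA per hepatocyte cannot be told apart.

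Hepatocytes near the portal vein take up amino acids from the gut, strip off their nitrogen and feed it as ammonia and aspartate into the urea cycle. Hepatocytes around the central vein catch the ammonia that escapes and fix it in glutamine. The carbon skeletons go to glucose and energy, and methionine, glycine and serine also supply the methyl groups of the folate and S-adenosylmethionine cycles. Most of these enzymes are made in the liver in amounts set by diet, glucagon and glucocorticoids.

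Amino acid genes were mostly lower in transgenic liver, and none was called higher. Of the 35 measured, 4 fell and 31 did not pass limma's test (Benjamini-Hochberg adjusted p under 0.05 over all probe sets with a single gene symbol). The 4 were Hal and Amdhd1 of histidine breakdown, the mitochondrial ornithine carrier Slc25a15 and Bckdha, a subunit of the enzyme that commits branched-chain amino acids to breakdown. Among all 19938 genes 6.34% were called, 1.67% lower and 4.67% higher, and among the 2338 genes at least as bright as the dimmest member 2.91% were called lower. At an unadjusted p under 0.05, 21 members were lower and 0 higher, where 18.3% and 15.3% of all genes were. The members' median log2 fold change was -0.44, beside -0.07 over all genes and 0.0024 over the 2338 bright ones. Of the 35 fold changes 33 were below 0, beside 61.6% of all genes and 49.7% of the bright ones.

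In 14 members every transgenic liver read lower than every control, which held for 11.2% of all genes and 15.9% of the bright ones. Of these members, Prodh and Sardh were parted by less than the rounding of the values given here. In 0 members did every transgenic liver read higher, beside 11.2% of all genes. In 22 members all 4 transgenic livers lay below the control mean, beside 36.6% of all genes. The calls lay close to the threshold and changed when single arrays were left out, as did those over all genes. With transgenic replicate 1, or any 1 of control replicates 1 to 4, left out, 0 members were called. Of all genes 0.015% were called lower without transgenic replicate 1, and 0.0502% to 0.176% without a control. The members' median log2 fold change was -0.39 without transgenic replicate 1 and -0.44 to -0.43 without a control. Without transgenic replicate 2 only Hal and Bckdha were called, beside 1.3% of all genes called lower. Without transgenic replicate 3 the count was 6 and without transgenic replicate 4 it was 14, beside 3.39% and 4.73% of all genes. After centring each array on its median 0 members were called, and 31 of the 35 fold changes were then below 0.

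**Figure D1:**
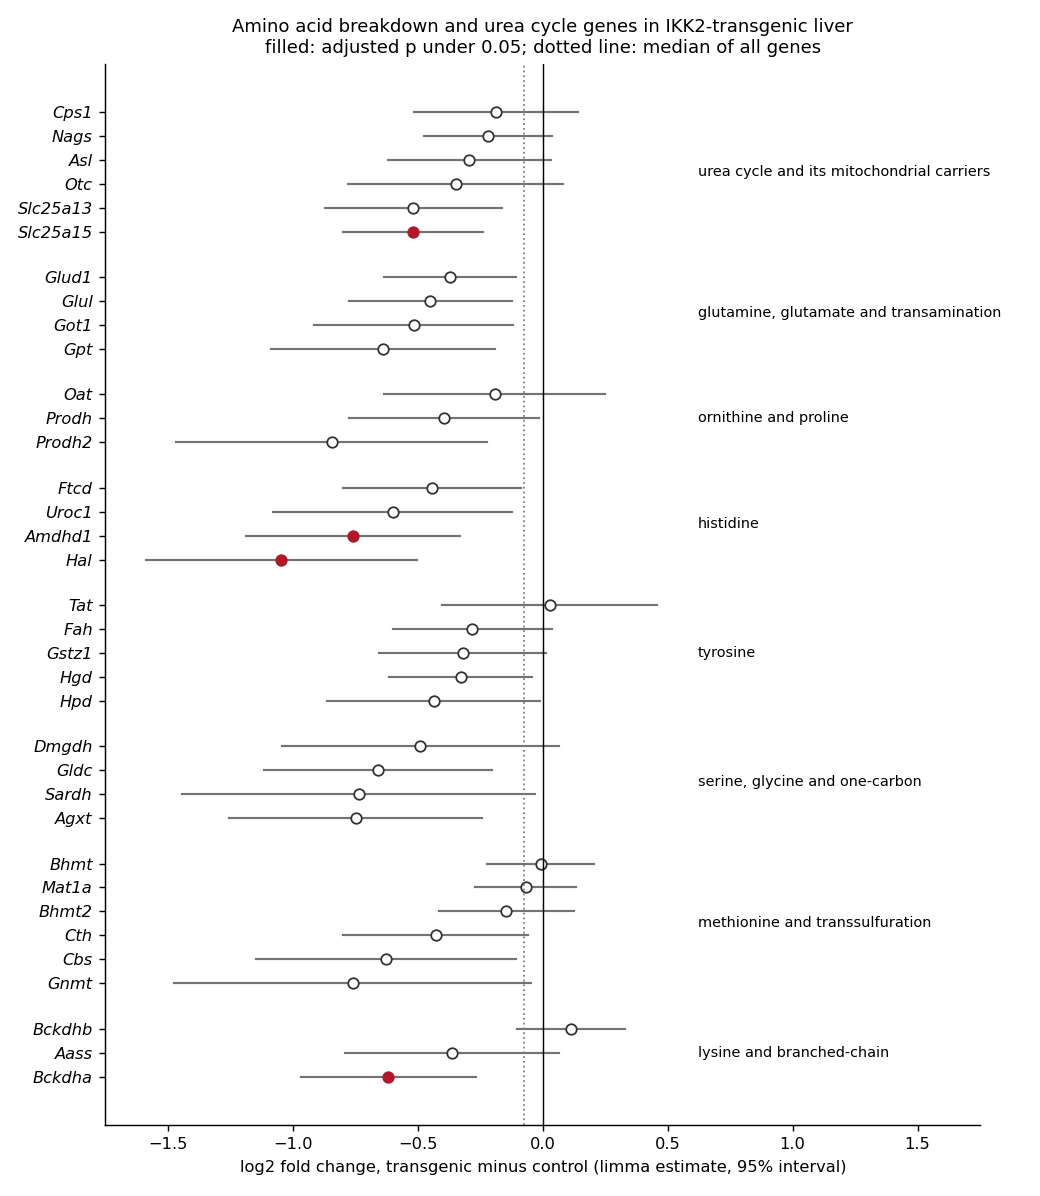
Log2 fold change of the 35 measured genes, transgenic minus control (n = 4 livers each), with limma's 95% interval, grouped by pathway; filled points passed at an adjusted p under 0.05 and the dotted line is the median of all genes. The fold changes run from -1.05 for Hal to 0.11 for Bckdhb, and 33 of 35 lie below 0.

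Histidine breakdown held the largest change of the set. The 4 enzymes act in sequence: Hal (histidase) removes ammonia from histidine, Uroc1 (urocanase) and Amdhd1 carry the product on, and Ftcd passes the remaining one-carbon unit to folate. Of the 4, 2 fell, and all 4 were lower at an unadjusted p. Hal read 9.75, 9.40, 10.06 and 10.77 in transgenic livers 1 to 4, against 11.12, 11.04, 10.89 and 11.12 in control replicates 1 to 4. Every transgenic liver was below every control, with replicate 4 nearest to them. The log2 fold change was -1.05 (SE 0.24, adjusted p = 0.0403), a 2.07-fold lower level.

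Amdhd1 read 9.41, 9.37, 9.87 and 10.31 in transgenic livers 1 to 4 and 10.57, 10.54, 10.33 and 10.56 in the controls. The groups did not overlap, although transgenic replicate 4 and control replicate 3 differed by little. Amdhd1 fell by 0.76 (log2 scale, SE 0.19, adjusted p = 0.0486). Uroc1 had a log2 difference of -0.60 (SE 0.21, adjusted p = 0.0963). Its values were 9.03, 8.35, 9.26 and 9.51 in transgenic livers and 9.45 to 9.75 in controls, so the groups overlapped through transgenic replicate 4. Ftcd stood at -0.45 (SE 0.16, adjusted p = 0.0968) and overlapped through the same liver. The calls of Hal and Amdhd1 were lost without transgenic replicate 1, without replicates 1 and 2 together and without any 1 control. They were also lost after centring each array on its median, with all deposited probe sets and against a 1.2-fold change, and that of Amdhd1 also without transgenic replicate 2, with array weights and with the replicate block.

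Hal and Amdhd1 lie next to each other among the protein-coding genes of chromosome 10. The 250 bases before the start of each are shown because both genes fell, with those of Bckdha and Slc25a15, which fell as well, and of Prodh2, Got1 and Bhmt2, which hold a searched motif. Slc25a15 has 2 windows, of which the one listed first is shown. The sequences are from RefSeq on the build GRCm38.p6, written 5′ to 3′ in the direction of the gene, with motif matches in capitals.
Hal, chr10:93488518-93488767, strand +: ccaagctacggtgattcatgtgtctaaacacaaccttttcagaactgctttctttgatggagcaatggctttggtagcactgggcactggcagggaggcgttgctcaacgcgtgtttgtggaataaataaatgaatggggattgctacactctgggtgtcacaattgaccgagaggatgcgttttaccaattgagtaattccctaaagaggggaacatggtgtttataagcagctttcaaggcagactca
Amdhd1, chr10:93540034-93540283, strand -: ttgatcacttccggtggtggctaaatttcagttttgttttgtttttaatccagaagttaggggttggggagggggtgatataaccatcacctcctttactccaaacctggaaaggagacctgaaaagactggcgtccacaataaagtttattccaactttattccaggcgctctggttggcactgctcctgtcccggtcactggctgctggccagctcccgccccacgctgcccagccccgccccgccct
Bckdha, chr7:25658762-25659011, strand -: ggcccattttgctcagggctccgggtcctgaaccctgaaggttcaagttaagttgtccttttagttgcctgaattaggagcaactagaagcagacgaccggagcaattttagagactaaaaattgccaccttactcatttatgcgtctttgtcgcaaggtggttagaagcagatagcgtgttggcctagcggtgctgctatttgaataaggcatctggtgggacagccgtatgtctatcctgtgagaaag
Slc25a15, chr8:22398622-22398871, strand -: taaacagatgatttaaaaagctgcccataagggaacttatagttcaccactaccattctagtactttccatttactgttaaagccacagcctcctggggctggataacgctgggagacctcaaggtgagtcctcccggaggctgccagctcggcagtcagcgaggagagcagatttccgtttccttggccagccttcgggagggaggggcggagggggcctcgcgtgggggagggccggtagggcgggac
Prodh2, chr7:30493408-30493657, strand +: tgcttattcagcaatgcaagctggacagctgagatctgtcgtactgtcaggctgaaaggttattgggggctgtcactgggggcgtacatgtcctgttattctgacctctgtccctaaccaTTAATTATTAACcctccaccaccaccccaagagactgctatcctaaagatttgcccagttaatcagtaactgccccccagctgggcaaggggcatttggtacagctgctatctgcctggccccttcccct
Got1, chr19:43524606-43524855, strand -: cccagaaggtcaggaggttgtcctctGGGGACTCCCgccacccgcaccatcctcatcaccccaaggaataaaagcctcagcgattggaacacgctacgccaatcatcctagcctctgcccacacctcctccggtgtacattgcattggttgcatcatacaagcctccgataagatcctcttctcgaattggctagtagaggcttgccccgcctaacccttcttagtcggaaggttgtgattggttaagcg
Bhmt2, chr13:93674303-93674552, strand -: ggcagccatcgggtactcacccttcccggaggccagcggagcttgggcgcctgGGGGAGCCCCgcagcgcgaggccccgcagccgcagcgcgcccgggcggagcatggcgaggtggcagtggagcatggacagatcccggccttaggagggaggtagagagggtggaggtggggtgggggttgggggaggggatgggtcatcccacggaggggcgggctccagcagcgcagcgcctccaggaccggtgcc

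Of the 35 members 30 had such a window, and 6 motifs were searched on both strands. The kB consensus, bound by NF-kB, was found in 2 of the 30 (Got1 and Bhmt2, 6.67%), beside 3.75% of 27025 windows of all genes. The HNF1 motif, bound by a factor of hepatocyte genes, stood in 1 (Prodh2), beside 0.0629% of all windows. The HNF4 motif CAAAGTCCA, the C/EBP motif TTGCGCAA, the cyclic AMP response motif TGACGTCA and the glucocorticoid receptor palindrome were in 0 of the 30, and in 0.381%, 0.17%, 1.62% and 0.0037% of all windows. Hal, Amdhd1, Bckdha and Slc25a15, the 4 that fell, held no match in these windows. The median share of G and C was 57.6% in the members' windows and 52% in all windows, and Hal's was 45.6%.

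In the urea cycle and its carriers 1 of 6 genes fell, all 6 fold changes were below 0 and the median was -0.32. The one that fell, Slc25a15, carries ornithine into the mitochondrion, where Otc joins it to carbamoyl phosphate. It read 9.86, 9.94, 10.21 and 10.41 in transgenic livers 1 to 4 and 10.53, 10.75, 10.62 and 10.61 in the controls. All transgenic livers lay below all controls, and Slc25a15 fell by 0.52 (log2 scale, SE 0.13, adjusted p = 0.0433). The call was lost without transgenic replicate 1 or 2, both singly and together, and without any 1 control. It was also lost after centring each array on its median, with all deposited probe sets, with array weights, with the replicate block and against a 1.2-fold change.

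The aspartate and glutamate carrier Slc25a13, which brings aspartate out for the cycle, had almost the same difference. It read 10.31, 10.05, 10.75 and 10.77 in transgenic livers and 10.89 to 11.13 in controls, without overlap. Its log2 fold change was -0.52 (SE 0.16, adjusted p = 0.0714), past the threshold without transgenic replicate 3 or 4 only.

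Cps1 makes carbamoyl phosphate in the first step of the cycle and is among the brightest members. Its values of 12.58, 12.56, 13.00 and 13.13 in transgenic livers 1 to 4 and 12.77 to 13.11 in controls overlapped. Replicates 1 and 2 were low, replicate 3 stood within the controls and replicate 4 just above them. The log2 fold change was -0.19 (95% interval -0.51 to 0.14). Otc stood at -0.35, Asl, which releases arginine, at -0.29, and Nags, whose product switches Cps1 on, at -0.22, each with overlapping groups and adjusted p-values of 0.182 to 0.221.

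Among enzymes that move nitrogen through glutamate, of 4 measured, 0 passed limma's test, all 4 were lower at an unadjusted p, and the groups did not overlap in any of them. Gpt, the alanine aminotransferase, read 9.33, 8.74, 9.70 and 9.70 in transgenic livers and 9.87 to 10.15 in controls. Its log2 fold change was -0.64 (SE 0.20, adjusted p = 0.0751). Got1, the cytosolic aspartate aminotransferase, stood at -0.52 (SE 0.18, adjusted p = 0.0902), with its lowest value of 10.74 in transgenic replicate 1.

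Glud1, the glutamate dehydrogenase that frees ammonia in the mitochondrion, had a log2 difference of -0.37 (SE 0.12, adjusted p = 0.0760). Its controls lay within 12.40 and 12.50, and its transgenic livers read 11.90, 11.85, 12.27 and 12.32. Glul makes glutamine from ammonia in the cells around the central vein. It read 10.99, 10.84, 11.40 and 11.50 in transgenic livers 1 to 4 and 11.53 to 11.71 in controls. The groups just failed to touch, and the log2 fold change was -0.45 (SE 0.15, adjusted p = 0.0799). Another, dimmer probe set of Glul stood at -0.56 (adjusted p = 0.0784). Gpt, Glud1 and Glul passed without transgenic replicate 4.

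In ornithine and proline metabolism 0 of 3 genes passed limma's test and 2 were lower at an unadjusted p. Prodh2, which oxidises hydroxyproline, was the dimmest member. It read 7.59, 7.16, 8.47 and 8.53 in transgenic livers 1 to 4 and 8.58, 8.88, 8.89 and 8.78 in the controls. Replicates 1 and 2 were far below the controls and replicates 3 and 4 just below them, giving a log2 difference of -0.84 (SE 0.28, adjusted p = 0.0825). Its relative Prodh, the proline dehydrogenase, stood at -0.40 (SE 0.17, adjusted p = 0.139), also without overlap. The Prodh groups almost touched, at 9.77 in transgenic replicate 4 and 9.77 in control replicate 1. Oat, which turns ornithine to glutamate semialdehyde, read 10.88, 10.51, 11.40 and 11.41 in transgenic livers and 11.04 to 11.42 in controls. It overlapped, at -0.19 (95% interval -0.63 to 0.25).

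Tyrosine breakdown runs from Tat, the aminotransferase, through Hpd, Hgd and Gstz1 to Fah. Of the 5 genes 0 passed limma's test and 2 were lower at an unadjusted p. Tat, a classical target of glucocorticoids, read 12.67, 13.13, 12.97 and 12.46 in transgenic livers and 12.88, 13.08, 12.89 and 12.28 in controls, and the groups overlapped over most of their range. Its log2 fold change was 0.03 (95% interval -0.40 to 0.46), an interval that holds both a small rise and a small fall. The other 4 were at -0.44 for Hpd, -0.33 for Hgd, -0.32 for Gstz1 and -0.28 for Fah. Hgd was the member of them without overlap, with controls within 11.90 and 11.96 and transgenic livers at 11.55, 11.24, 11.73 and 11.87.

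Genes of glycine and one-carbon metabolism had the lowest median of the 8 pathway groups, -0.70, with 0 of 4 past limma's test and 3 lower at an unadjusted p. Agxt detoxifies glyoxylate to glycine. It read 8.83, 8.35, 9.31 and 9.39 in transgenic livers and 9.72, 9.89, 9.34 and 9.92 in controls. Control replicate 3 fell below transgenic replicate 4, and the log2 fold change was -0.75 (SE 0.23, adjusted p = 0.0694). Gldc, the decarboxylase of the glycine cleavage system, stood at -0.66 (SE 0.20, adjusted p = 0.0728) without overlap. Both passed without transgenic replicate 4.

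Sardh and Dmgdh, which take methyl groups off sarcosine and dimethylglycine in the mitochondrion, were low in a single liver above all. Sardh read 9.63 in transgenic replicate 2, 10.61 in replicate 1, and 11.23 and 11.30 in replicates 3 and 4, against 11.30 to 11.61 in controls. Its log2 fold change was -0.74 (SE 0.32, adjusted p = 0.139). Dmgdh read 9.56 in transgenic replicate 2 but 10.34 to 10.89 in the remaining 3 transgenic livers, and stood at -0.49 (SE 0.25, adjusted p = 0.190).

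In the methionine cycle 0 of 6 genes passed limma's test and 3 were lower at an unadjusted p. Gnmt, which uses up S-adenosylmethionine on glycine, read 11.10, 10.08, 11.64 and 11.84 in transgenic livers 1 to 4 and 11.82 to 12.06 in controls. Replicate 2 was the low point here too, and the log2 fold change was -0.76 (SE 0.32, adjusted p = 0.133). Cbs and Cth, which turn homocysteine into cysteine, stood at -0.63 (SE 0.23) and -0.43 (SE 0.17), with overlapping groups.

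Mat1a makes S-adenosylmethionine in hepatocytes, and Bhmt and Bhmt2 remethylate homocysteine with methyl groups from betaine and S-methylmethionine. Their differences were -0.07 for Mat1a (95% interval -0.27 to 0.13), -0.0090 for Bhmt (-0.22 to 0.21) and -0.15 for Bhmt2 (-0.42 to 0.13). Those of Mat1a and Bhmt turned to 0.01 and 0.07 after centring each array on its median. Bhmt has 3 probe sets. The 2 bright ones stood at -0.0090 and -0.0039, and a dim one, at a mean level of 7.76, at -0.22. The sources used here do not say which of them reads the gene alone.

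Lysine and branched-chain breakdown gave 1 fall among 3 genes. Bckdha and Bckdhb code for the 2 subunits of the decarboxylase of the branched-chain ketoacid dehydrogenase complex. Bckdha read 9.41, 8.91, 9.60 and 9.67 in transgenic livers 1 to 4 and 10.16, 9.97, 9.93 and 9.99 in the controls, without overlap. It fell by 0.62 (log2 scale, SE 0.16, adjusted p = 0.0487), a call lost without transgenic replicate 1, without replicates 1 and 2 together and without any 1 control. It was also lost after centring each array on its median, with all deposited probe sets, with the replicate block and against a 1.2-fold change. Bckdhb read 9.78, 9.61, 9.84 and 9.66 in transgenic livers and 9.76, 9.69, 9.44 and 9.55 in controls. The groups overlapped, and the log2 fold change was 0.11 (95% interval -0.10 to 0.33), the highest of the 35 members. Aass, which starts the main path of lysine breakdown, stood at -0.36 (SE 0.19, adjusted p = 0.203).

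Members of one enzyme or family could be compared within each array, where a shift of the whole array cancels. The choice of the 3 pairs was made with their values in view. The log2 value of Bckdha minus that of Bckdhb lay between -0.70 and 0.01 in transgenic livers and between 0.29 and 0.49 in controls, a change of -0.73. Prodh2 minus Prodh changed by -0.45 and Bhmt2 minus Bhmt by -0.14. In each of the 3 the groups did not overlap, but only narrowly for Prodh2 minus Prodh and Bhmt2 minus Bhmt. Their highest transgenic values were -1.22 and -1.71, and their lowest control values -1.19 and -1.68. Since the pairs were picked for such differences, these are descriptions with no test. The change of Bhmt2 against Bhmt was -0.10 after quantile normalization and turned to 0.07 with the dim probe set of Bhmt. Under both of these settings the groups overlapped.

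**Figure D2:**
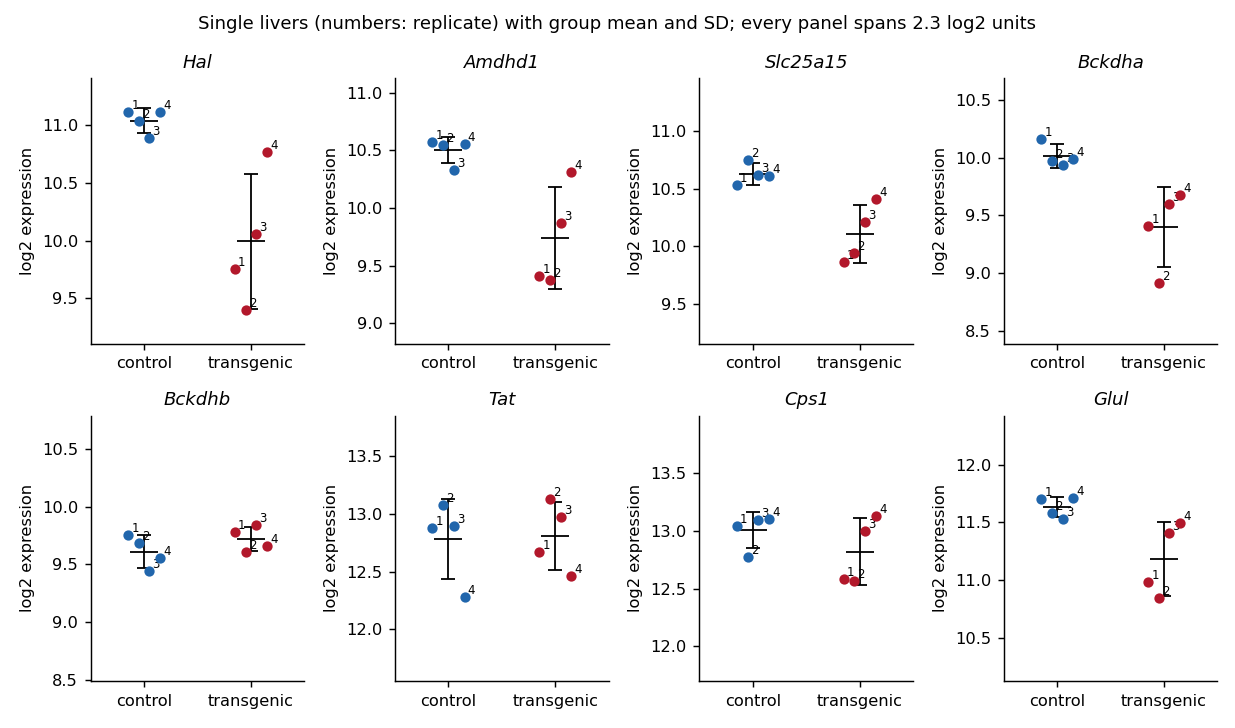
Log2 expression of 8 genes in each control (blue) and transgenic (red) liver, numbered by replicate, with the group mean and SD (n = 4). Hal, Amdhd1, Slc25a15, Bckdha and Glul do not overlap between groups, while Bckdhb, Tat and Cps1 do.

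The transgenic livers differed among themselves more than the controls. The SD was larger in the transgenic group for 33 of 35 members, beside 59.4% of all genes. Transgenic replicate 2 was the lowest transgenic liver for 31 members, beside 38.6% of all genes, and replicate 4 the highest for 29. In 31 members replicates 1 and 2 both read below replicates 3 and 4, which held for 34% of all genes. The median member stood at -0.57, -0.82, -0.20 and -0.09 in transgenic livers 1 to 4, relative to its control mean, and at -0.03 to 0.02 in the controls. Without transgenic replicate 2 the members' median log2 fold change was -0.29, and without replicate 4 it was -0.57. Without replicates 1 and 2 together, a choice made after seeing the data, it was -0.16, with 29 of 35 fold changes below 0 and 0 members called.

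**Figure D3:**
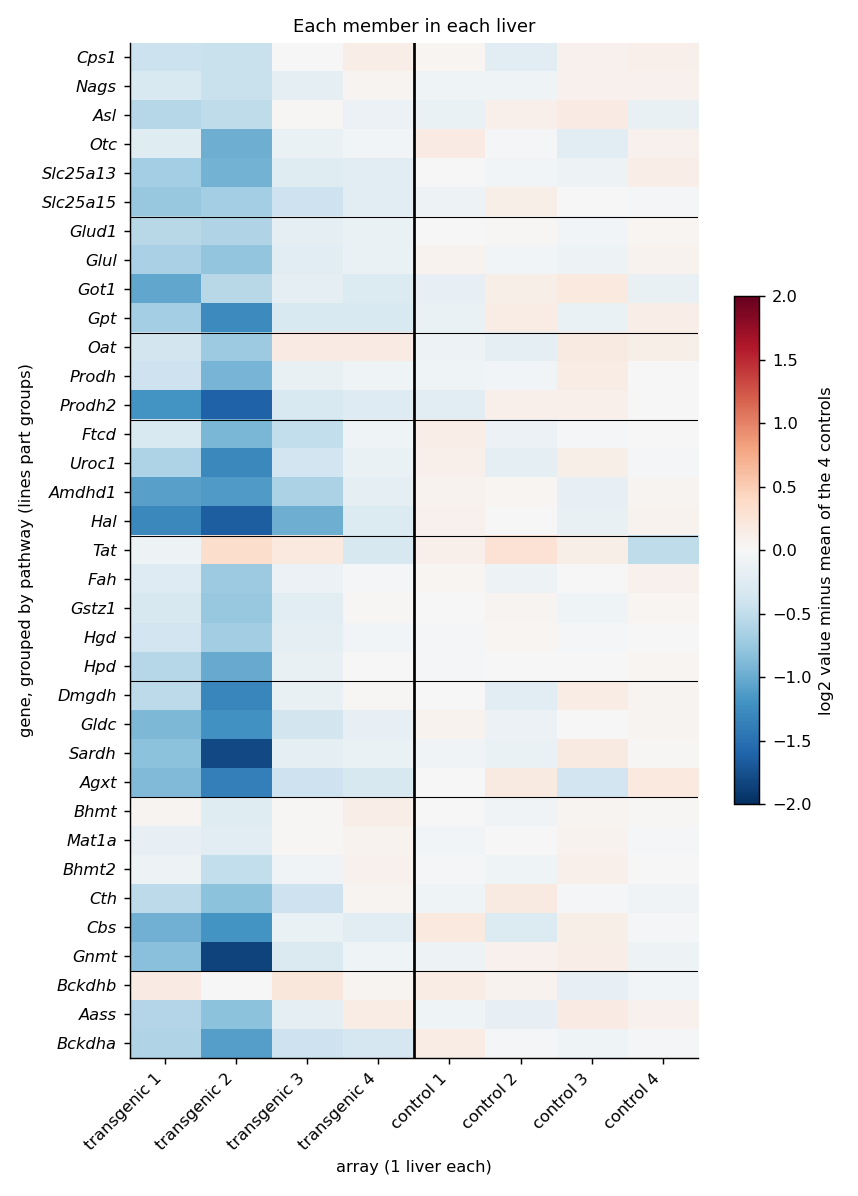
Log2 value of each member in each of the 8 livers minus the mean of the 4 controls, with genes grouped by pathway. Transgenic replicates 1 and 2 are the lowest columns, replicate 4 is close to the controls, and Tat and Bckdhb do not follow the other genes.

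Most macrophage and monocyte markers were higher in transgenic liver. Of 16 Kupffer cell and macrophage markers 12 rose, and of 11 monocyte markers 9 did, Lyz2 by 2.84 and Cybb, a subunit of the phagocyte oxidase, by 4.04. The mean log2 value of the macrophage list was 9.16, 10.17, 9.16 and 8.83 in transgenic livers 1 to 4 and 7.65 to 8.08 in controls. That of the monocyte list was 7.13, 7.82, 6.52 and 6.64, against 5.02 to 5.06. Transgenic replicate 2, the lowest liver for most amino acid genes, was the highest for both lists, and the part of these cells in the lower amino acid values was not tested.

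Hepatocyte markers, which check the tissue, were bright in all 8 livers. Their list mean was 12.65, 12.53, 12.76 and 12.78 in transgenic livers 1 to 4 and 12.69 to 12.77 in controls. Transgenic replicate 2 thus had the lowest mean here too. Of 13 hepatocyte markers measured, 0 passed limma's test (2 lower and 1 higher at an unadjusted p), and the median log2 fold change was -0.01. The median hepatocyte marker stood at -0.09, -0.10, 0.03 and 0.03 in transgenic livers 1 to 4, in the livers where the median amino acid gene stood at -0.57, -0.82, -0.20 and -0.09. The markers are brighter than most members, and among the members the brightest differed least. The 6 members with a control mean of at least 12 had a median of -0.13, the 13 between 11 and 12 had -0.43 and the 16 below 11 had -0.52, bounds chosen with the values in view. Whether the upper end of the scale, where the highest value of any probe set was 14.13, holds these differences down was not tested.

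**Figure D4:**
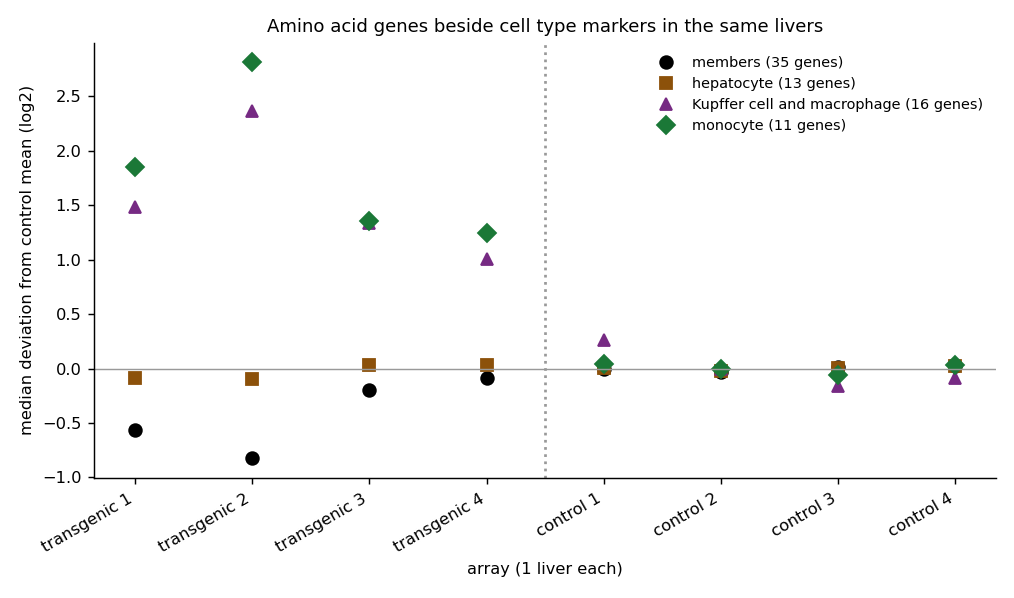
Median deviation from the control mean (log2) in each liver, for the 35 amino acid genes, 13 hepatocyte, 16 macrophage and 11 monocyte markers. Transgenic replicate 2 has the lowest amino acid value (-0.82) and the highest macrophage and monocyte values (2.36 and 2.81), while hepatocyte markers stay between -0.10 and 0.03.

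Among the remaining marker lists, 2 of 14 T, NK and B cell genes rose (Cd3g the most, by 1.53), 1 of 12 endothelial genes (Stab1, by 0.80) and 4 of 12 stellate cell genes (Col1a1 the most, by 0.71). Of 12 neutrophil and 8 bile duct genes 0 passed limma's test, with 2 higher and 2 lower, respectively, at an unadjusted p. Of all genes 4.67% were called higher, and 15.3% were higher and 18.3% lower at an unadjusted p. Transgenic replicate 2 stood apart here too, with a mean neutrophil marker value of 4.94 against 4.04 to 4.27 in the other 7 livers. There Retnlg read 6.09 and Mmp8 5.81, genes picked after their values were seen. Not all neutrophil markers were high in that liver. Elane at 4.29 and Camp at 4.74 were the lowest of all 8 livers there. Mpo at 5.09 lay within the controls, at 4.72 to 5.32. The mean T, NK and B cell marker value of transgenic replicate 2, 5.23, was also the highest, against 4.27 to 4.79. The part of these cells in its low amino acid values was not tested. The neutrophil and bile duct genes with the smallest p, Ltf and Krt19, stood at 0.23 and -0.25. Array medians lay between 4.88 and 5.08 over all probe sets. The lowest were those of transgenic replicates 2 (4.88) and 1 (4.92). The same arrays had the highest upper quartiles, 7.06 and 6.98, against 6.76 to 6.87 in the others. The part of this in their low amino acid values was not tested. Ikbkb, the gene of IKK2, read 8.38 to 9.09 in transgenic livers and 7.44 to 7.85 in controls. The sources used here do not say whether the probe set of Ikbkb reads the transgene. Without transgenic replicate 1 or any 1 control the adjusted p of Ikbkb was 0.0546 to 0.0691.

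Other enzymes of the same pathways were read through a list of 99 measured genes. Of these 11 fell and 1 rose, with a median of -0.40 and 85 fold changes below 0, again beside 1.67% and 4.67% of all genes called. Kyat1, which transaminates kynurenine and glutamine, had the largest difference. Its transgenic values ran from 7.59 in replicate 2 to 9.51 in replicate 4, under controls of 10.02 to 10.74, and fell by 1.86 (log2 scale, SE 0.38, adjusted p = 0.0290). Etnppl, a lyase of phosphoethanolamine that is regulated by feeding, fell by 1.57 (SE 0.32, adjusted p = 0.0294), from 9.89 to 10.51 in controls to 7.97, 8.11, 9.08 and 9.54. Both show the order of livers seen in the members, with replicates 1 and 2 below replicates 3 and 4.

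The list of branched-chain, lysine and propionate genes held 4 of the 11 falls among 25 genes, and 24 of the 25 were below 0. Ppm1k, the phosphatase that switches the branched-chain dehydrogenase complex on, fell by 0.93 (SE 0.23, adjusted p = 0.0486), although transgenic replicate 4 at 10.06 overlapped control replicate 3 at 10.03. Acad8 and Acadsb, the acyl-CoA dehydrogenases of valine and isoleucine breakdown, fell by 0.71 and by 0.60, and Phykpl of hydroxylysine breakdown fell by 0.39. Aspg, an asparaginase, fell by 0.88 and Mpst, which handles the sulphur of cysteine, by 0.87. Sirt3 and Sirt5, mitochondrial deacylases whose substrates include urea cycle enzymes, fell by 0.65 and by 0.40. In methionine salvage Adi1 fell by 0.80 while Apip rose by 0.85 (SE 0.19, adjusted p = 0.0370). With the transporters the list has 125 genes, of which 12 were called lower. Without transgenic replicate 1, or without any 1 of control replicates 1, 2 and 4, the count was 0, without control replicate 3 it was 1 and without transgenic replicate 4 it was 40.

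Of 26 amino acid transporters 5 rose and 1 fell, with a median of 0.10. Slc7a7, which exports cationic amino acids and is known from macrophages as well as gut and kidney, read 8.51, 8.72, 7.42 and 7.19 in transgenic livers 1 to 4 and 5.08 to 5.38 in controls. It rose by 2.74 (SE 0.31, adjusted p = 0.00286), a call kept in all 19 alternatives run. The neutral amino acid transporters Slc7a8, Slc38a1, Slc43a2 and Slc1a5 rose by 1.76, 1.45, 1.05 and 0.73. Each of these 5 was highest in transgenic replicate 2, the liver with the highest macrophage and monocyte markers. The part of those cells was not tested. Slc3a1, the heavy chain of a cystine and cationic amino acid importer, fell by 1.35 (SE 0.31, adjusted p = 0.0385). Of the 125 transporters and other enzymes together 6 were called higher. Without transgenic replicate 1, or without any 1 of the 4 controls, the count was 1, and without transgenic replicate 4 it was 10.

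**Figure D5:**
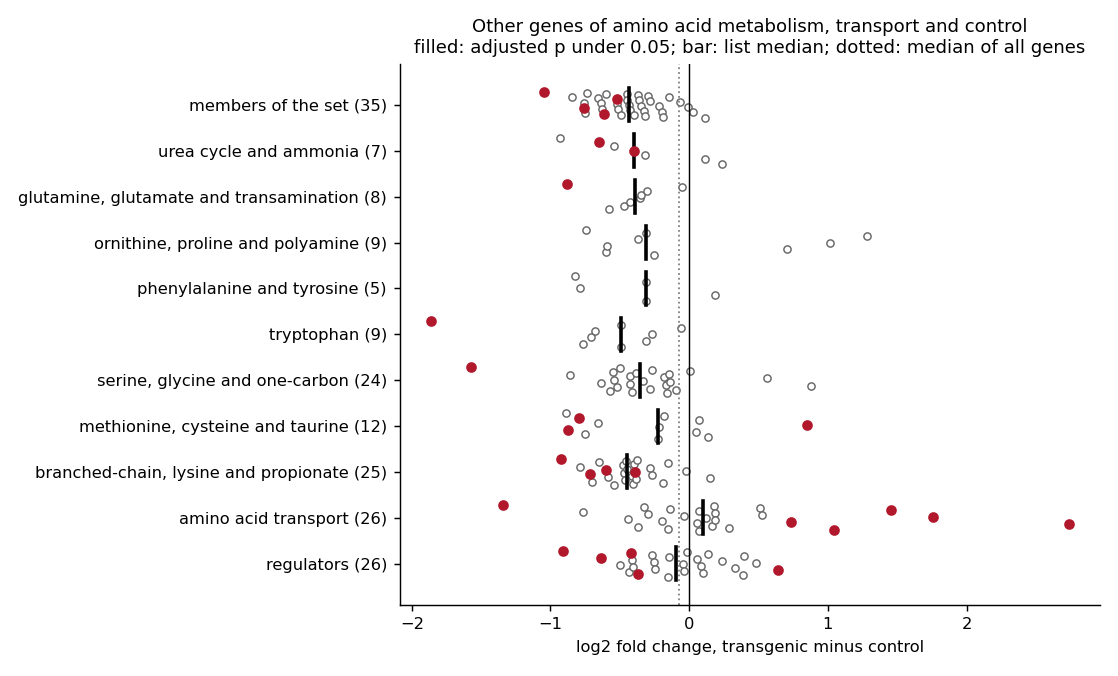
Log2 fold changes of the 35 members, of the other genes of amino acid metabolism by pathway, of transporters and of regulators, with the number of genes in brackets, list medians as bars and genes past an adjusted p of 0.05 filled. Enzyme lists have medians from -0.49 (tryptophan) to -0.22 (methionine, cysteine and taurine), while transporters stand at 0.10.

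Factors known from liver to act on amino acid enzyme genes, and hormone-induced genes such as Pck1 and Fkbp5 that serve as read-outs, made a list of 26 measured genes. Of these 4 fell and 1 rose, with a median of -0.09. Of all genes 1.67% were called lower and 4.67% higher, with a median of -0.07. The regulators' median and share called higher lay near these values. The glucagon receptor Gcgr read 8.83, 8.24, 8.66 and 8.89 in transgenic livers and at least 9.11 in every control, without overlap, and fell by 0.63 (SE 0.15, adjusted p = 0.0424). Nr0b2, a corepressor induced by bile acids, fell by 0.91, the pioneer factor Foxa1 by 0.42 and Creb3l3, a membrane-bound factor of fasting, by 0.37. Fkbp5, a chaperone cofactor induced by glucocorticoids, rose by 0.64 (SE 0.15, adjusted p = 0.0422). Without transgenic replicate 1 and without any 1 of control replicates 1 to 3, 0 of the 26 were called, and without control replicate 4 it was 1. Without transgenic replicate 3 it was 2, and after centring each array on its median it was 0.

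Position along the lobule was read through 2 lists. Of 15 periportal genes 2 fell (Hal and Etnppl) and 1 rose (Ctsc, a lysosomal protease also made by leukocytes, by 1.30), and the median was -0.35. Hal, Cps1, Otc, Uroc1 and Gldc are also members, and Arg1 and Etnppl are also among the other enzymes above. Both falls thus repeat genes already counted. Among the rest, Cyp2f2 and Hsd17b6 stood at -0.57 and -0.60. Pck1, Hsd17b13, Cdh1, Aldh1b1, Sox9 and Ctsc stood at 0.13, 0.25, 0.69, 0.01, 0.36 and 1.30. Of 19 pericentral genes 0 fell and 1 rose, with 3 lower at an unadjusted p, and the median was -0.09. Glul and Oat of this list are also members. Of all genes 1.67% were called lower and 4.67% higher, 18.3% were lower at an unadjusted p, and the median was -0.07. The pericentral counts and median lay near these values. The pericentral gene that rose was Rhbg, an ammonia channel of the glutamine-making cells, by 0.64 (SE 0.14, adjusted p = 0.0344). It read 8.10 to 8.53 in transgenic livers and 7.49 to 8.06 in controls, while Glul, made by the same cells, stood at -0.45. Without transgenic replicate 1, or without any 1 control, 0 periportal genes were called, without transgenic replicates 3 and 4 in turn 5 and 7 were, and without transgenic replicate 2 the periportal median was -0.14. The pericentral median was -0.19 without transgenic replicate 3 and again without replicate 4, -0.16 without control replicate 2, -0.0076 after centring and 0.0314 without transgenic replicates 1 and 2 together. The call of Rhbg was lost without transgenic replicate 1 and without control replicates 1, 2 and 4 in turn. A difference between the 2 lists was not tested.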

How the data were processed

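The authors deposited log2 expression per probe set. The submitters' processing notes name Affymetrix Expression Console, and the sources used here do not give its version, background correction or normalization. The values were used without further scaling. Of 35556 probe sets, 21789 had 1 gene symbol in the platform annotation, 1621 had several and 12146 none, and those with 1 were tested. Groups were compared with limma 3.58.1 (R 4.3.3, lmFit and eBayes, group as the only term) and Benjamini-Hochberg adjustment over the tested probe sets. The procedure was tested on simulated data. These had independent noise per probe set and the same SD in both groups. They do not cover the larger, shared spread of the transgenic livers. The number of arrays, 4 a group, limits the precision.

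The members and all gene lists were chosen with earlier results of these data known. All measured members could be named. Of the companion, regulator and lobule lists, the called genes with the largest changes were named, up to 6 in each direction. Of each cell type list, the called gene with the largest change was named, or the one with the smallest p. Adi1, Acad8, Acadsb, Phykpl, Sirt3 and Sirt5 were named after their values were seen. Alternatives were quantile normalization, centring, filters on dim probe sets, all probe sets, the mean of a gene's probe sets, trend and robust moderation, array weights, a replicate block, a test against a 1.2-fold change, and leaving out arrays. A pseudocount did not apply to log2 values.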

Additional observations from a re-analysis of the deposited data

Results flagged for a closer look

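Amdhd1 read 10.33 in control replicate 3, below the other 3 controls at 10.54 to 10.57. The gap exceeds the limit of Dixon's test for 4 samples, which chance passes in about 1 in 20 groups, and it was the only one among the 70 groups of the 35 members.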

How the results depend on the processing

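Members called lower, 4 as deposited, were 0 with each array centred on its median, 0 with all deposited probe sets, 2 with array weights and 0 when tested against a 1.2-fold change. They were 0 without transgenic replicates 1 and 2 together and 0 to 14 without single arrays. Quantile normalization, both filters on dim probe sets, the mean of a gene's probe sets and trend and robust moderation each called the same 4 genes. No alternative called a member higher. The members' median ranged from -0.57 to -0.29 without single arrays, was -0.25 with array weights and -0.16 without transgenic replicates 1 and 2. The causes of these changes were not tested.

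Same-numbered livers did not pair: the correlations of their deviations were 0.24, -0.03, 0.26 and -0.13, and only replicates 1 and 3 correlated best with their own number. With a replicate block, members called lower were 1 (Hal), companion genes called lower 6, regulators called lower 2 and higher 0, and all genes called lower 174.

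Companion genes called lower (12) were 5 with centring, 0 with all probe sets, 0 against a 1.2-fold change, 5 without transgenic replicates 1 and 2, and 0 to 40 without single arrays. Those called higher (6) were 3 with all probe sets, 1 against a 1.2-fold change and 1 to 10 without single arrays. Regulators called lower (4) were 0 with centring, all probe sets, a 1.2-fold change or without transgenic replicates 1 and 2, 2 with trend and robust moderation, and 0 to 5 without single arrays. Regulators called higher (1) were 0 with quantile normalization, centring, all probe sets and a 1.2-fold change, and 0 to 2 without single arrays. Their median was -0.21 with quantile normalization, -0.0124 with centring, and -0.17 to -0.0445 without single arrays.

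Periportal genes called (3) were 0 with all probe sets and against a 1.2-fold change, and 0 to 7 without single arrays. Pericentral genes called (1) were 0 with quantile normalization, all probe sets, a 1.2-fold change or without transgenic replicates 1 and 2, and 0 to 3 without single arrays. The periportal median was -0.0897 without transgenic replicates 1 and 2 and -0.45 to -0.14 without single arrays. Over all genes 333 were called lower, and 638 with quantile normalization, 97 with centring, 54 with all probe sets, 501 with array weights, 8 against a 1.2-fold change, 51 without transgenic replicates 1 and 2 and 3 to 944 without single arrays. The 932 called higher became 618 with centring, 425 with all probe sets, 271 against a 1.2-fold change, 602 without transgenic replicates 1 and 2 and 192 to 1636 without single arrays.

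Signs turned for members near 0. Without transgenic replicates 1 and 2, Cps1 stood at 0.0612, Oat at 0.16, Tat at -0.0631, Mat1a at 0.0512, Bhmt at 0.0814 and Bhmt2 at 0.0066. With array weights Oat stood at 2.3e-05, Mat1a at 0.0143 and Bhmt at 0.0547, and with centring Mat1a at 0.0109 and Bhmt at 0.0706. Without single arrays Tat ranged from -0.14 (control replicate 4 left out) to 0.14 and was also below 0 without transgenic replicates 2 and 3 in turn, and Bhmt ranged from -0.0584 to 0.0702, above 0 without transgenic replicate 2 or control replicate 3. Bhmt2 minus Bhmt turned to 0.0730 with the dim Bhmt probe set.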

Other observations

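Several members are neighbours among the protein-coding genes of the mouse genome. Bhmt, Bhmt2 and Dmgdh lie in a row on chromosome 13, and their log2 fold changes were -0.0090, -0.15 and -0.49. Hal and Amdhd1, neighbours on chromosome 10, stood at -1.05 and -0.76.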
